A study of Mus musculus with 5 samples.

Results

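Ly6c2 monocytes were sought among the cells of MC38 tumors, and 51 cells met the rule, 33 of 33762 in reaction 1 and 18 of 23332 in reaction 2. The rule was applied to barcodes with at least 200 genes and under 10% mitochondrial UMIs (unique molecular identifiers, each standing for 1 captured transcript), with no upper limit on genes. It asked for at least 2 UMIs of Ly6c2, at least 2 of Tyrobp, at least 1 UMI of Ccr2, Plac8, or Chil3, no UMI of Cd3d, Cd3e, or Cd3g, under 20 UMIs of C1qa, C1qb, and C1qc together per 10000, and under 5 of Arg1 per 10000. The members were thus selected on RNA counts of the same cells, so the levels of these genes describe the choice and are not results. The members were 0.0977% (95% CI, 0.0673% to 0.137%) of the filtered cells of reaction 1 and 0.0771% (95% CI, 0.0457% to 0.122%) of reaction 2, by the exact Clopper-Pearson method. They were 0.265% and 0.188% of the cells with at least 2 Tyrobp UMIs and no CD3 UMI. Those cells are called myeloid cells below, though the gate asked for no other gene and did not exclude other cell types that hold Tyrobp RNA. The whole series holds 191492 barcodes in 5 reactions, 3 of them from tumor-draining lymph nodes (TDLNs). The paper describes its TDLN scRNA-Seq in mice implanted with TRAMP-C2 prostate tumor cells, not MC38.

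MC38 is a mouse colon carcinoma line, here grown under the skin of male WT C57BL/6J mice aged 8 to 10 weeks. On days 3, 6, and 9 the mice were given isotype antibody or checkpoint inhibition (CPI, antibodies against CTLA4 and PD-1), then vehicle or 20 mg/kg of the JAK1 inhibitor ABT-317 on day 12, which gives the groups isotype, CPI, CPI + ABT-317, and isotype + ABT-317. Tumors were taken on day 15, live CD45+ and CD45- cells were sorted and mixed 1:1, the cells were tagged with hashtag antibodies that mark treatment, and each of the 2 tumor reactions holds all 4 groups. The mixing sets the share of immune cells, and the sources used here do not say if 1 reaction has other mice than the other. The p-values therefore measure only the spread among values of these 2 reactions, which may be technical.

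Classical monocytes leave the bone marrow through the chemokine receptor CCR2, carry the GPI-anchored protein Ly-6C on their surface, and become macrophages or dendritic cells in inflamed tissue and tumors. As they do so they lose Ly-6C and gain complement C1q, apolipoprotein E, and other macrophage products. Ly6c2 codes for 1 of the Ly-6C proteins, and Ly6c1, its neighbor, codes for the other.

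The 2 genes are nearly identical, and the rule rests on reads assigned to 1 of them, which is why their sequences are shown. In GENCODE vM21 (GRCm38), Ly6c2 lies at chr15:75108158-75111970 and Ly6c1 at chr15:75044018-75048830, both on the minus strand. The coding sequences of transcripts Ly6c2-201 and Ly6c1-201 are 393 bases long without the stop codon and differ at 9 positions (97.7% identity), 6 of them within the first 120 bases. Those first 120 coding bases, 5′ to 3′ with the differing bases in capitals, are as follows.
Ly6c2: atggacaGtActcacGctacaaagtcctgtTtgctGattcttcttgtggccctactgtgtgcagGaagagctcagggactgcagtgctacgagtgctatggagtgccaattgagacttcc
Ly6c1: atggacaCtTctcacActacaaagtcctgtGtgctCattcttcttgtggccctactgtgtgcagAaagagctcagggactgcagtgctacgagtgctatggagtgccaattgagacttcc
Reads that cover no differing base cannot be assigned to either gene, so the counts of both are uncertain.

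The same cells were also stained with antibodies that carry DNA tags, and the tag counts were not used by the rule. The panel held 122 antibodies other than the 10 hashtags, 9 of them isotype controls. The tags of the antibodies on which the surface results turn are shown whole, in capitals because every base identifies the antibody.
Ly-6C: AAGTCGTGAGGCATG
CD11b: TGAAGGCTCATTTGT
F4/80: TTAACTTCAGCCCGT
I-A/I-E (MHC class II): GGTCACCAGTATGAT
Siglec H: CCGCACCTACATTAG
Ly-6G: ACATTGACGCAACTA

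The members spanned a wide range of depth. In reaction 1 they held 1468 to 62172 UMIs with a median of 5427, and in reaction 2 they held 1701 to 32018 with a median of 3442.5, against medians of 8781.5 and 9998 over all filtered cells. The study's own filter keeps cells under 2500 genes, and 31 members, 19 and 12, were under that limit, with medians of 2682 and 2680.5 UMIs. The other 20, 14 and 6, had medians of 22819 and 27527.5 UMIs. More than 1 hashtag was present on 11 of 14 and 5 of 6 of these deep members, against 1 of 19 and 2 of 12 of the shallow ones. Several hashtags on 1 barcode can mean cells of more than 1 treatment in a droplet, or free hashtag. Among all filtered cells with 2500 genes or more the share with several hashtags was 49.5% and 31.4%, and in C1q-high macrophages of that depth it was 76.8% and 51.99%. The deep members supplied 373824 of 430394 UMIs in reaction 1 and 146108 of 182229 in reaction 2, so a level summed over all members is mostly theirs. RNA is therefore compared with C1q-high macrophages first for the shallow members alone and then for all members summed. The antibody tests and the comparisons with the other classes use all members. Ptprc (CD45), which the rule did not ask for, was at 34.8 and 61.6 CPM in the deep members, 459.6 and 415 CPM in the shallow ones, and 200 and 179 CPM in C1q-high macrophages of all depths. The 6 fibroblast genes fixed as markers summed to 1937 and 3162 CPM in the deep members, 495 and 194 CPM in the shallow ones, and 2819 and 2498 CPM in those macrophages. The deep members are given no cell type here.

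**Figure D1:**
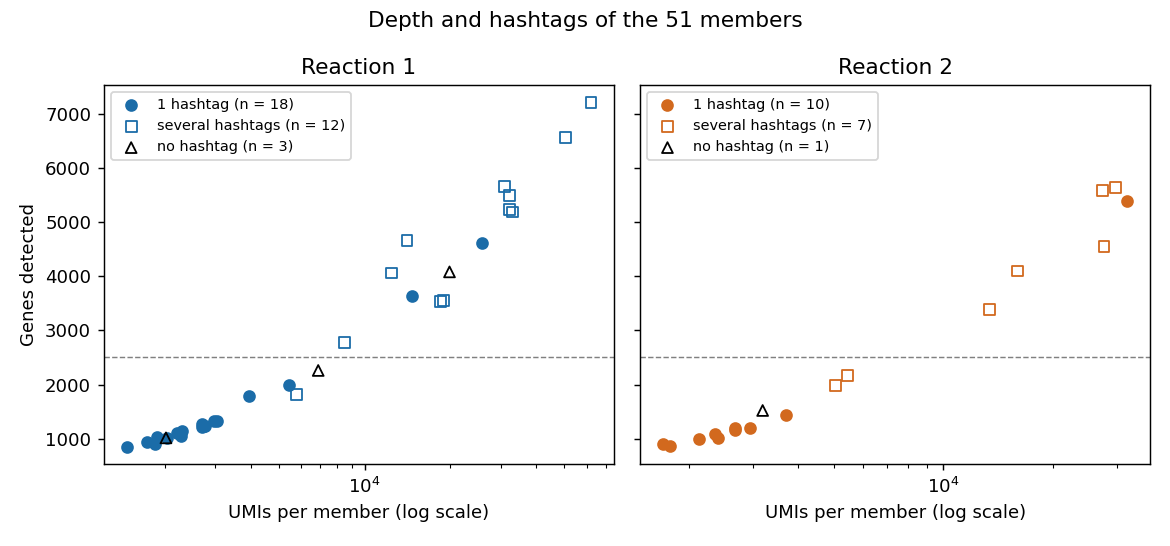
UMIs (x axis, log scale) and genes detected (y axis) of each of the 51 members in both reactions, with the symbol showing how many hashtags were present and the dashed line at 2500 genes. Most members above the line, 11 of 14 and 5 of 6, carried several hashtags.

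The gate genes and the given markers were as follows, in CPM, that is, UMIs summed over a class per 1000000 of its gene UMIs. Ly6c2 was at 1290.4 and 1716 CPM in the shallow members of reactions 1 and 2, at 115 and 205 CPM in the deep members, and at 4.91 and 5.02 CPM in C1q-high macrophages (cells with at least 2 Tyrobp UMIs, no CD3 UMI, and C1q genes at 20 or more per 10000, 7540 and 7285 cells). Plac8, a small cysteine-rich protein of myeloid and lymphoid cells, was the gene through which most members met the rule, with a UMI in 27 of 33 and 17 of 18 members. It was at 1715 and 1910.2 CPM in the shallow members and at 28.7 and 28.5 CPM in C1q-high macrophages. Chil3, a chitinase-like protein of monocytes, was detected in 4 of 19 and 5 of 12 shallow members, at 265 and 249 CPM. In reaction 1, 12 of the 15 UMIs came from 1 member, without which the level was 58.7 CPM. Ccr2 was detected in 8 of 19 and 5 of 12, at 177 and 332 CPM. Fn1 (fibronectin) and Vcan (versican), markers that the rule did not ask for, were detected in 10 of 19 and 11 of 12, and in 3 of 19 and 3 of 12 shallow members. Fn1 was at 866 and 997 CPM in shallow members, 936 and 1574 CPM in deep members, and 919 and 773 CPM in C1q-high macrophages. In neither set of members was it 2-fold higher in both reactions. Against macrophages under 2500 genes its log2 ratio in shallow members was 0.65, with a median of -0.07 over all genes compared. Ly6c1 had no UMI in any of the 31 shallow members, which allows up to 53.0 and 83.1 CPM (3 UMIs of the total), but stood at 109.7 and 95.8 CPM in the deep members.

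At the edge of the rule, 12 and 7 members held exactly 2 Ly6c2 UMIs, 12 and 3 held exactly 3, and 9 and 8 held 4 or more. Another 43 and 23 cells met every other criterion with exactly 1 Ly6c2 UMI. Of the members, 4 and 3 had C1q genes at 10 to under 20 per 10000, and 3 and 3 cells that met every other criterion stood at 20 to under 30. The CD3 criterion removed 35 of 101 cells in reaction 1 and 56 of 110 in reaction 2, and the C1q criterion then removed 31 of 66 and 30 of 54. These counts describe the choice only.

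Surface Ly-6C was not used by the rule. Its median level was above that of C1q-high macrophages in both reactions, but the main test over summed counts, with TMM scaling, did not pass (edgeR adjusted p = 0.111). With all cells kept it passed with total counts in place of TMM (edgeR adjusted p = 0.0378) and with scaling to the isotype controls (edgeR adjusted p = 0.0206), so the result depended on the scaling. Per cell, the median Ly-6C antibody count per 10000 antibody UMIs was 454 and 539.9 on the shallow members, 300.2 and 191 on the deep members, and 138 and 128 on C1q-high macrophages. In the shallow members of reaction 1 it ranged from 125 to 4481, and in those of reaction 2 from 169 to 702. A level above 300 was found on 14 of 19 and 10 of 12 shallow members, on 7 of 14 and 1 of 6 deep members, and on 101 of 7540 and 105 of 7285 C1q-high macrophages (1.34% and 1.44%). It was also found on 6 of 102 and 16 of 89 Arg1-positive C1q-low cells (5.88% and 18.0%). Of all filtered cells under 2500 genes, 867 and 578 (5.70% and 5.97%) stood above 300, so such a level was not particular to the members. The line at 300 was chosen after the values were seen. Macrophages under 2500 genes had medians of 139 and 128, and deeper ones 138 and 129. The cells with exactly 1 Ly6c2 UMI that met every other criterion had medians of 183 and 261, between the 2 classes. The isotype control antibodies, the background of this measurement, ranged from 9.15 to 35.2 and from 8.99 to 34.3 in the members' per-cell medians.

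**Figure D2:**
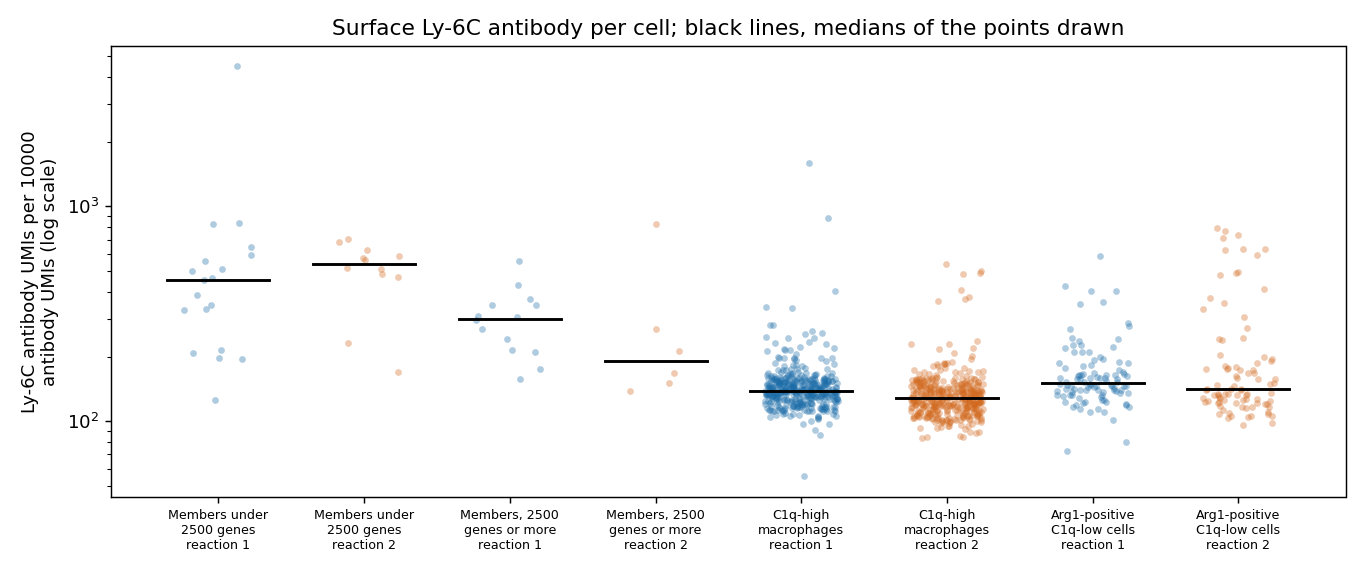
Ly-6C antibody UMIs per 10000 antibody UMIs of each cell (y axis, log scale) in shallow members, deep members, C1q-high macrophages (a random draw per reaction), and Arg1-positive C1q-low cells, by reaction. Each point is a cell and each black line the median of the points drawn. The shallow members have medians of 454 and 539.9, while the macrophages have medians of 138 and 128.

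Antibody counts were summed per class and reaction and tested with edgeR's quasi-likelihood test with reaction as a block, 4 classes by 2 reactions in 1 fit, with Benjamini-Hochberg adjustment over 122 antibodies. Summed Ly-6C was 951 and 417 per 10000 in the members, 154 and 142 in C1q-high macrophages, 159 and 199 in Arg1-positive C1q-low cells (102 and 89 cells), and 196 and 224 in neutrophils (4 and 5 cells). The log2 difference between members and C1q-high macrophages was 2.28 ± 0.41, higher in 2 of 2 reactions, but edgeR's adjusted p was 0.111. Each SE given with a log2 difference was derived from the edgeR test statistic, with the spread estimated over all 4 classes and both reactions. The sum of reaction 1 turned on 1 shallow member with 19297 Ly-6C UMIs of 43065 antibody UMIs. When cells with over 25% of their antibody UMIs in 1 antibody were left out of every class (2 members among them), a step added after the data were seen, the difference was 1.46 ± 0.084 (edgeR adjusted p = 0.000237). On the same step Ly-6C was higher than in Arg1-positive C1q-low cells by 1.10 ± 0.084 (edgeR adjusted p = 0.00123) and than in neutrophils by 0.88 ± 0.090 (edgeR adjusted p = 0.00233). With all cells kept, those differences were 1.98 ± 0.41 and 1.76 ± 0.41 with edgeR adjusted p of 0.143 and 0.132.

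Of the 122 antibodies, 0 (0%) were higher and 1 (0.82%) lower in the members than in C1q-high macrophages, and 15 had an unadjusted edgeR p under 0.05. The lower one was CD49f (integrin α6, a laminin receptor), by 0.53 ± 0.029 (SE) on the log2 scale (edgeR adjusted p = 0.00151), and it did not pass when either macrophage sum was left out (edgeR adjusted p up to 0.0564). F4/80, the macrophage surface protein coded by Adgre1, was at 40.6 and 41.9 per 10000 in the members and 54.6 and 54.4 in C1q-high macrophages, with a log2 difference of -0.31 ± 0.063 that missed the threshold (edgeR adjusted p = 0.111). It was lower under all 11 alternatives and passed in 4, with total counts, isotype control scaling, DESeq2, and without led cells (adjusted p from 5.21e-06 to 0.804 over the 11). CD11b, the integrin shared by myeloid cells, was at 120.5 and 129 against 191 and 199 (log2 difference, -0.55 ± 0.21; edgeR adjusted p = 0.384). Its level was 87.1 and 152 in the shallow and 153 and 85.1 in the deep members, in opposite order in the 2 reactions. I-A/I-E, the class II molecules that present peptides to CD4+ T cells, were at 85.8 and 70.2 against 106 and 109 (log2 difference, -0.42 ± 0.48; edgeR adjusted p = 0.737), and the difference turned to 0.17 when the macrophage sum of reaction 2 was left out. In reaction 1, 1 deep member held 1205 of the 2560 I-A/I-E UMIs, and the level without it was 47.8. The shallow members were at 49.99 and 73.8 and the deep ones at 121 and 63.3. The per-cell medians were 29.1 and 46.2 in the members and 67.3 and 67.5 in the macrophages. CD115 (the CSF1 receptor), at 14.9 and 17.9, and CD11c, at 50.1 and 51.9, were close to the macrophage values of 17.9 and 21.3, and 56.5 and 58.8, and did not pass. Against Arg1-positive C1q-low cells 0 antibodies (0%) passed in either direction, with 16 at an unadjusted p under 0.05. Against neutrophils 0 (0%) were higher and 2 (1.64%) lower. These were Ly-6G, the defining neutrophil antigen, at 39.9 and 43.9 in members and 100.3 and 120.4 in neutrophils (log2 difference, -1.31 ± 0.080; edgeR adjusted p = 0.00233), and CD24 (-1.40 ± 0.14; edgeR adjusted p = 0.0132), which did not pass with cells under 2500 genes only (-1.55, edgeR adjusted p = 0.145). DESeq2 on the same sums passed 13, 12, and 11 antibodies in the 3 comparisons.

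RNA levels were compared without a test, since the rule used RNA of the same cells. To bring depth closer, the 31 shallow members were set against C1q-high macrophages under 2500 genes (5776 and 5246 cells). Median depth still differed, at 2682 and 2680.5 UMIs in the members and 3321 and 3805 in the macrophages. The comparison covered 590 genes at 250 CPM or more in 1 of the 2 classes in both reactions. Of these, 17 (2.88%) were at least 2-fold higher in the members in both reactions and 25 (4.24%) at least 2-fold lower. A gene under 250 CPM in the macrophages, such as Slpi, Lsp1, or Clec4e, entered only through its level in the members. One under that level in the members entered only through the macrophages. The counts therefore describe the 2 classes and are not a test. The 10 genes with the highest ratio are described first. Slpi, a secreted protease inhibitor, was at 1096 (95% exact Poisson interval, 840.3 to 1405) and 609 (382 to 922) CPM against 25.98 and 23.4 CPM, but only 5 of 19 and 3 of 12 members held a UMI of it. S100a4, a calcium-binding protein of motile leukocytes, was at 1219.7 (949 to 1544) and 2076 (1633 to 2603) CPM against 444 and 341 CPM, and its relative S100a11 at 1962 and 1938 CPM against 519.9 and 463 CPM. Lsp1, an actin-binding protein of leukocytes, was at 407 and 415 CPM against 74.8 and 81.8 CPM. Clec4e, the receptor Mincle, was at 725 (520.1 to 983) and 747 (493 to 1088) CPM against 219.5 and 223 CPM. Osm (oncostatin M), Plaur (the urokinase receptor), Nr4a2 (a nuclear receptor), Samhd1 (a dNTP hydrolase), and Thbs1 (thrombospondin 1) completed the 10, at 2.51- to 6.71-fold. The intervals cover counting error only.

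Among the 10 genes with the lowest ratio, Apoe, the lipid carrier of macrophages, was at 1485 (1184 to 1838) and 2547 (2053 to 3124) CPM in shallow members and 9896 and 11721 CPM in the macrophages. Ms4a7, a membrane protein of mature macrophages, was at 159 and 277 CPM against 927 and 1073 CPM. The chemokine gene Ccl12 had 4 and 1 UMIs, 70.7 and 27.7 CPM, against 943 and 1008 CPM, and Ccl7 had 6 and 0 UMIs against 818 and 974.9 CPM. Pf4 (platelet factor 4), with 2 and 1 UMIs, was at 35.4 and 27.7 CPM against 470.5 and 459.8 CPM. Cd81, Gatm, Zmynd15, Dab2, and Ckb were the other five, with 1 to 4 UMIs per reaction each. Apoe is abundant in macrophages, and free Apoe RNA in droplets was not subtracted.

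**Figure D3:**
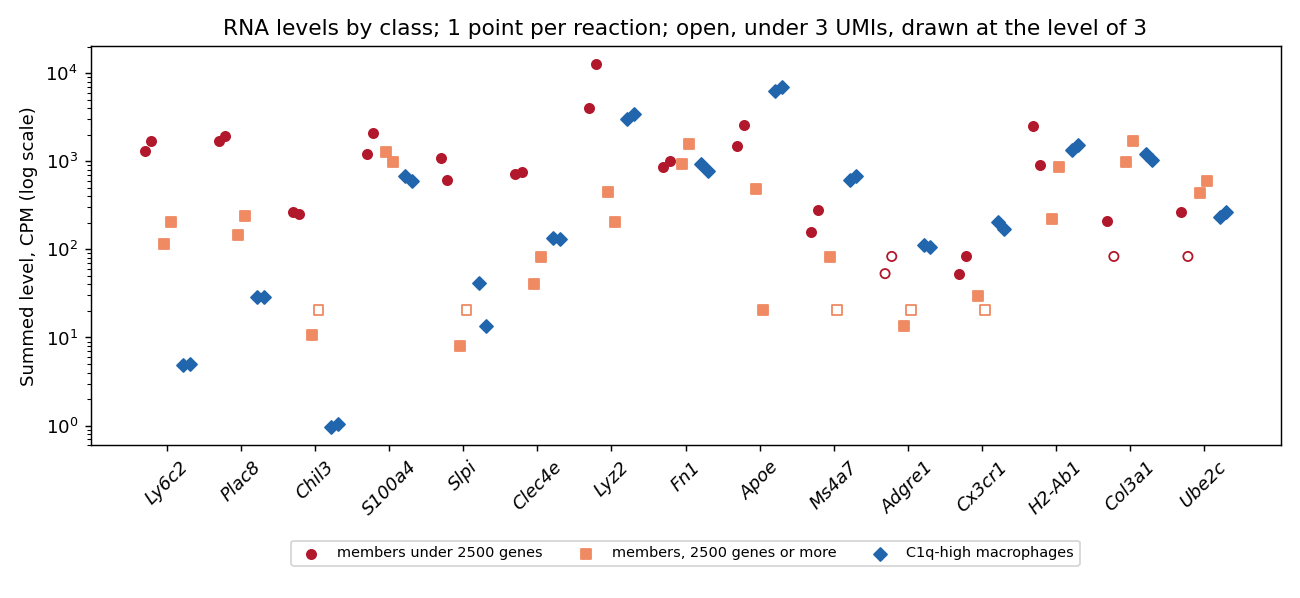
Summed RNA level in CPM (y axis, log scale) of 15 genes in shallow members (circles), deep members (squares), and C1q-high macrophages (diamonds), 1 point per reaction, with open symbols, drawn at the level of 3 UMIs, for fewer than 3. Plac8, Chil3, Slpi, and Clec4e are highest in shallow members (12 of the 15 Chil3 UMIs of reaction 1 are those of 1 cell), and Apoe, Ms4a7, and Cx3cr1 in macrophages. Ly6c2, Plac8, and Chil3 are genes of the rule, so their levels describe the choice.

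By list, against the same 2.88% higher and 4.24% lower and a median log2 ratio of -0.07 over all 590 genes, the shallow members differed from the macrophages as follows. Of 7 other classical monocyte genes compared, 3 were higher (S100a4, Thbs1, and Clec4e) and 0 lower, with a median log2 ratio of 1.37. Lyz2, the lysozyme of myeloid cells, was at 4013 and 12652 CPM against 4476 and 5401 CPM, lower in reaction 1 and higher in reaction 2. Of 6 macrophage differentiation genes, 4 were lower (Apoe, Trem2, Ms4a7, and Cd81) and 0 higher, with a median log2 ratio of -1.96. Of 2 nonclassical monocyte genes, Cx3cr1, the fractalkine receptor, was lower, with 3 and 3 UMIs (53.0 and 83.1 CPM against 321 and 265 CPM). Of 14 inflammatory cytokines and chemokines, 1 (Osm) was higher and 2 (Ccl7 and Ccl12) lower. Il1b was at 4490.0 and 3101 CPM against 1565 and 1793 CPM, which is under 2-fold in reaction 2.

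MHC class II genes differed between the reactions. H2-Ab1 was at 2510.2 CPM in the shallow members of reaction 1 and 914 CPM in those of reaction 2, against 2132 and 2612 CPM in shallow macrophages, and H2-Aa, H2-Eb1, and Cd74 followed the same order, so 0 of 5 class II genes passed. In reaction 1 a few cells set the level, since 8 of 19 members had no H2-Ab1 UMI and 2 members held 48 and 46 of the 142 UMIs. Of 4 MHC class I genes 0 passed in either direction, of 3 IFN-gamma induced genes 1 (Cxcl10, 247 and 388 CPM against 856 and 965 CPM) was lower, and of 3 type I interferon-stimulated genes 0 passed. Ifitm3, an antiviral membrane protein, was at 2652 and 3544 CPM against 1563 and 1722 CPM. Of the JAK-STAT genes only Socs3, the feedback inhibitor of STAT3 signaling, was abundant enough to compare, at 159 and 166 CPM against 307 and 355 CPM. Of 6 hypoxia and glycolysis genes, 2 Fc gamma receptor genes, 3 oxidative burst genes, 3 suppressive and checkpoint genes, and 13 immediate early and heat shock genes, 0 passed in either direction, and no cell cycle gene reached the level. Of 2 plasmacytoid dendritic cell genes 0 passed, of 2 trafficking genes Cx3cr1 was lower, and of the fibroblast genes Col3a1, the only one compared, was lower.

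With all 51 members summed against all C1q-high macrophages, 12 of 2917 genes at 50 CPM or more (0.411%) were at least 2-fold higher in both reactions and 199 (6.82%) lower. When the shallow members alone were summed against the same macrophages, 311 of 3227 genes were at least 2-fold higher and 59 lower, and 2 of the 12 and 14 of the 199 were past 2-fold there too. At that level 3 UMIs, 53.0 and 83.1 CPM in the shallow members, let a gene into the comparison through the members, so nothing is read from these counts. With each member weighted equally, 87 of 2970 genes were higher and 72 lower. The levels and lists that follow are those of all members summed, mostly UMIs of deep ones. The lowest were Pf4 at 6.97 and 10.98 CPM against 287 and 271 CPM, Apoe at 618 and 521 CPM against 6301 and 6923 CPM, Ms4a7 at 92.9 and 60.4 CPM against 619 and 675 CPM, Adgre1 at 16.3 and 10.98 CPM against 111 and 105 CPM, and Cx3cr1 at 32.5 and 27.4 CPM against 207 and 170 CPM. Zmynd15, Ccl12, Cxcl14, Tgfbr1, and Fcrls completed the 10. Against a median log2 ratio of 0.06 over all 2917 genes, 8 of 10 macrophage differentiation genes were lower, with a median of -2.52, and Mrc1 (the mannose receptor) had no UMI in any member. Of 8 other classical monocyte genes 0 were higher and 2 lower (median log2 ratio, 0.35). The 2 were Itgam, which codes for CD11b, at 51.1 and 76.8 CPM against 192 and 185 CPM, and Csf1r, the CSF1 receptor gene, at 60.4 and 87.8 CPM against 253 and 247 CPM. No list had a gene at least 2-fold higher. Lower were 7 of 17 inflammatory cytokines and chemokines, 6 of 16 immediate early and heat shock genes, 3 of 5 Fc gamma receptor genes, 3 of 8 suppressive and checkpoint genes, 2 of 6 oxidative burst genes, 2 of 6 trafficking genes, 2 of 3 nonclassical monocyte genes, 2 of 4 fibroblast genes, and 2 of 13 type I interferon-stimulated genes. In the class II, IFN-gamma induced, JAK-STAT, and hypoxia and glycolysis lists 1 gene each was lower, of 6, 8, 10, and 13 compared, and 0 of 14 class I and 0 of 9 cell cycle genes were. The genes with the highest ratio were Slpi, Mme, Prkg2, Ndst1, Itgbl1, Plcb1, Ifitm1, Ptk2, Gna11, and Tmem263, at 2.07- to 8.98-fold. Slpi is the protease inhibitor named above, Mme a membrane peptidase, and Ifitm1 an interferon-induced membrane protein. Itgbl1, an extracellular integrin-like protein, had a UMI in 11 of 33 and 1 of 18 members. The members summed carried collagen RNA, with Col3a1 at 979 and 1677 CPM in the deep members and 212 and 55.4 CPM in the shallow ones. Col3a1 was detected in 14 of 14 and 6 of 6 deep members. The cell cycle gene Ube2c was at 436 and 602 CPM in the deep members, and at 265 and 0 CPM in the shallow ones. Whether the deep barcodes hold 1 cell or more was not tested beyond the hashtags, and no doublet caller was run.

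Against Arg1-positive C1q-low cells, which express the arginase that consumes arginine in hypoxic tumor, 13 of 2843 genes (0.457%) were at least 2-fold higher in the members in both reactions and 141 (4.96%) lower. Il1r2, Nxt1, H2ax, Birc5, and Ube2c were highest. H2ax, a histone of DNA damage, and Birc5 and Ube2c, genes of cell division, had a UMI in 13 and 5 members or fewer. Acp5, Pf4, Ctsk, Mmp13, and Areg were lowest. Acp5 and Ctsk, an acid phosphatase and a cysteine protease of osteoclasts and macrophages, were at 0 and 10.98 CPM and 11.6 and 0 CPM in the members against 214 and 445 CPM and 312 and 276 CPM. Against the 9 neutrophils, whose 31944 and 4792 UMIs make 3 UMIs worth 93.9 and 626 CPM, 1 gene of 2620 (0.0382%) was at least 2-fold higher (Col3a1) and 298 (11.4%) lower. In each ratio a count under 3 UMIs was taken as 3, so a gene with fewer neutrophil UMIs was scored at those levels. Nothing is read from these counts. Hdc (histidine decarboxylase), Cstdc4, Cxcl3, Retnlg, and Mreg were lowest. Dcn, H2az1, H2-Aa, and Eif5a followed Col3a1 at the upper end without reaching 2-fold in both reactions.

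Some members carried markers of other cell types or lacked those of monocytes. Siglech and Ccr9, genes of plasmacytoid dendritic cells, together had at least 2 UMIs in 3 of 33 and 1 of 18 members. The 2 shallow ones among them, 1 per reaction, held 6 Siglech UMIs each, no Lyz2 UMI, 8 Ly6c2 UMIs each, and CD11b antibody at 13.5 and 16.9 per 10000, against member medians of 114 and 110.2, which goes against the label monocyte for these cells. Their Siglec H antibody was at 42.7 and 52.8 per 10000, against medians of 42.1 and 42.0 over all members. Another shallow member of reaction 1 held 46 H2-Ab1 UMIs and no Lyz2 or Fn1 UMI. Its CD11b antibody was at 26.4 per 10000 and its Ly-6C antibody at 125, under the macrophage median of 138. A further one held no Lyz2 UMI, with CD11b antibody at 22.7 and Ly-6C antibody at 196. The label monocyte is in doubt for both. Another of that reaction held 13 H2-Ab1 UMIs and no Lyz2 or Fn1 UMI, with CD11b antibody at 206 and Ly-6C antibody at 215. Further shallow members there held 1, 2, 2, and 3 Lyz2 UMIs, the last with 48 H2-Ab1 UMIs. The label is uncertain for these members as well. In 1 other shallow member of reaction 1 the neutrophil genes S100a8 and S100a9 dominated, with 439 of the 440 S100a8 UMIs of the shallow members in that reaction. It held 12 Chil3 UMIs and 29 Lyz2 UMIs, and its Ly-6C antibody was at 388 per 10000. Its Ly-6G antibody was at 59.5, against a member median of 43.1 and a neutrophil median of 102. Csf3r, Cxcr2, and Ly6g together had fewer than 2 UMIs in it, so it did not meet the neutrophil criterion used here. Markers of NK, T, B, endothelial, epithelial, and erythroid cells were at 43.9 CPM or less summed over all members, most of whose UMIs are those of deep ones, while those of neutrophils, plasmacytoid dendritic cells, and fibroblasts were not near 0. Of 8 NK cell genes 5 and 4 had no UMI in any member (summed level 18.6 and 43.9 CPM), of 7 T cell genes 6 and 5 (27.9 and 43.9 CPM, with the CD3 genes at 0 by the rule), of 5 B cell genes 4 and 4 (2.32 and 10.98 CPM), of 5 endothelial genes 2 and 2 (13.9 and 32.9 CPM), of 6 epithelial genes 5 and 6 (2.32 and 0 CPM), and of 4 erythroid genes 4 and 3 (0 and 5.49 CPM). In the shallow members alone, where 3 UMIs are 53.0 and 83.1 CPM, NK cell genes were at 124 and 0 CPM, T cell genes at 88.4 and 27.7 CPM, and B cell genes at 0 and 55.4 CPM, against 7.11 and 2.67, 49.3 and 46.1, and 7.42 and 8.70 CPM in C1q-high macrophages. Of 10 conventional dendritic cell genes 4 and 6 had none (92.9 and 93.3 CPM), and Flt3 was at 0 in both. Of 10 neutrophil genes 4 and 6 had none, with Cxcr2, Ly6g, Mmp8, and Cxcr1 at 0 in both. Their summed level was 2033 and 54.9 CPM, and in reaction 1 it was mostly the cell with 439 S100a8 UMIs. Of 8 plasmacytoid dendritic cell genes only Klk1 had none. They summed to 1055 and 1098 CPM in all members, 1343 and 2132 CPM in the shallow ones, 1011 and 842 CPM in the deep ones, and 1127 and 1164 CPM in C1q-high macrophages. Of 6 fibroblast genes only Lum had none, and their summed level was 1747 and 2574 CPM in all members, and its part in the members' levels was not tested.

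Within the members, states were read from a set of genes fixed for this purpose, as the share of cells with a UMI after each cell was thinned to 2000 UMIs (29 and 16 members deep enough; unthinned shares are given for the genes named first). Il1b, the inflammatory cytokine, was detected in 75.8% and 72.2% of members before thinning and 48.3% and 81.2% after, against 10% and 7.55% of T cells and 23.2% and 21.9% of fibroblasts after thinning. Free RNA was not measured apart, and these 2 cell types stand beside the members only as cells of other lineages. C1q-high macrophages were at 60.7% and 58.9%, inside the members' intervals, and members under 2500 genes at 66.7% and 90% of 15 and 10 cells. H2-Ab1 was detected in 60.6% and 72.2% of members before and 44.8% and 56.2% after, against 12.0% and 3.77% of T cells, 23.3% and 25.3% of fibroblasts, and 64.5% and 65.2% of C1q-high macrophages, with members under 2500 genes at 60% and 50%. Median depths before thinning were 5427 and 3442.5 UMIs in members, 2102 and 1649 in T cells, and 8205 and 7711.5 in fibroblasts. After thinning, Spp1 (osteopontin) was at 41.4% and 31.2% against fibroblast shares of 23.5% and 28.6%, and Vegfa (a growth factor of vessels) at 20.7% and 43.8% against 15.6% and 12.7%. The exact interval lay above the fibroblast share for Vegfa in reaction 2 (19.8% to 70.1%) and, by a narrow margin, for Spp1 in reaction 1 (23.52% to 61.1%, against 23.46%). Both intervals held the share of C1q-high macrophages, which was 35.9% and 37.6% for Spp1 and 25.9% and 24.9% for Vegfa. Members under 2500 genes were at 46.7% and 30% for Spp1 and 26.7% and 50% for Vegfa. Cxcl10 was at 27.6% (12.7% to 47.2%) and 18.8% (4.05% to 45.6%), between the T cell shares of 18.0% and 15.1% and the fibroblast shares of 28.0% and 28.5%. The intervals held both, while C1q-high macrophages, at 48.4% and 48.4%, lay above them. Members under 2500 genes were at 33.3% and 20%, with intervals up to 61.6% and 55.6%. Mki67 (17.2% and 6.25%), Cxcl9 (10.3% and 6.25%), Nos2 (10.3% and 6.25%), and Ifit3 (10.3% and 12.5%) rested on 5 cells or fewer per reaction. With 29 and 16 cells an exact interval is wide; that of Il1b runs from 29.4% to 67.5% and from 54.4% to 96.0%.

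The study asked how CPI and ABT-317 changed the cells of these tumors, and the hashtags placed 28 of the 51 members in a treatment. With the treatment taken from cells with exactly 1 hashtag present, isotype held 9 and 8 members of 10585 and 9315 cells (0.0850% and 0.0859%), CPI 6 and 1 of 2108 and 1413 (0.285% and 0.0708%), CPI + ABT-317 3 and 1 of 2153 and 2072 (0.139% and 0.0483%), and isotype + ABT-317 0 and 0 of 2968 and 2175. A count of 0 there allows up to 0.101% and 0.138% at 3 cells of the total, while the exact 95% intervals reach 0.124% and 0.169%. Several hashtags were present on 12 and 7 members and none on 3 and 1. The 2 reactions gave isotype nearly the same share, while the CPI share rested on 6 cells and 1 cell. Without the members that held at least 2 UMIs of Siglech and Ccr9, CPI held 4 and 1 members (0.190% and 0.0708%). These were 1.44% and 0.433% of its myeloid cells. The member with the most S100a8 UMIs and the one with the most Ly-6C UMIs were also among the 6 CPI members of reaction 1. None of 4 comparisons between treatments reached significance by the exact two-sided permutation test over reactions, with p from 0.333 to 1 and adjusted p from 0.667 to 1, and 2 reactions against 2 cannot go below 0.333. The test did not pair the values by reaction. CPI + ABT-317 minus CPI was -0.145 percentage points in reaction 1 and -0.0225 in reaction 2. CPI minus isotype was 0.0922 percentage points (p = 1, exact permutation test), and it was 0.20 in reaction 1 and -0.015 in reaction 2. Of the myeloid cells, isotype members were 0.178% and 0.159%, CPI members 2.16% and 0.433%, and CPI + ABT-317 members 0.809% and 0.228%, with an exact permutation p of 0.333 for CPI against isotype (adjusted p = 0.444), both reactions higher in CPI. Myeloid cells were 47.8% and 54.1% of isotype cells and 13.2% and 16.3% of CPI cells, so the denominator moved with treatment.

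The treatment of a member depended on how hashtags were read. When the strongest hashtag had to exceed the next by 1 natural-log unit, isotype held 6 and 2 members, CPI 0 and 0, CPI + ABT-317 7 and 4, isotype + ABT-317 0 and 0, and 20 and 12 had no leading hashtag. CPI minus isotype was then -0.049 percentage points, the opposite sign, and CPI + ABT-317 minus CPI went from -0.0839 to 0.132. Isotype + ABT-317 had no member by either reading. Depth also differed by treatment, with medians of 5567 and 7572 UMIs over isotype cells, 2094 and 2800 over CPI cells, 16649 and 22854 over CPI + ABT-317 cells, and 16654 and 23933 over isotype + ABT-317 cells, and its part in the shares was not tested beyond thinning. No treatment reached 20 members in a reaction, the minimum set for a test of genes, so gene levels were not compared between treatments.

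**Figure D4:**
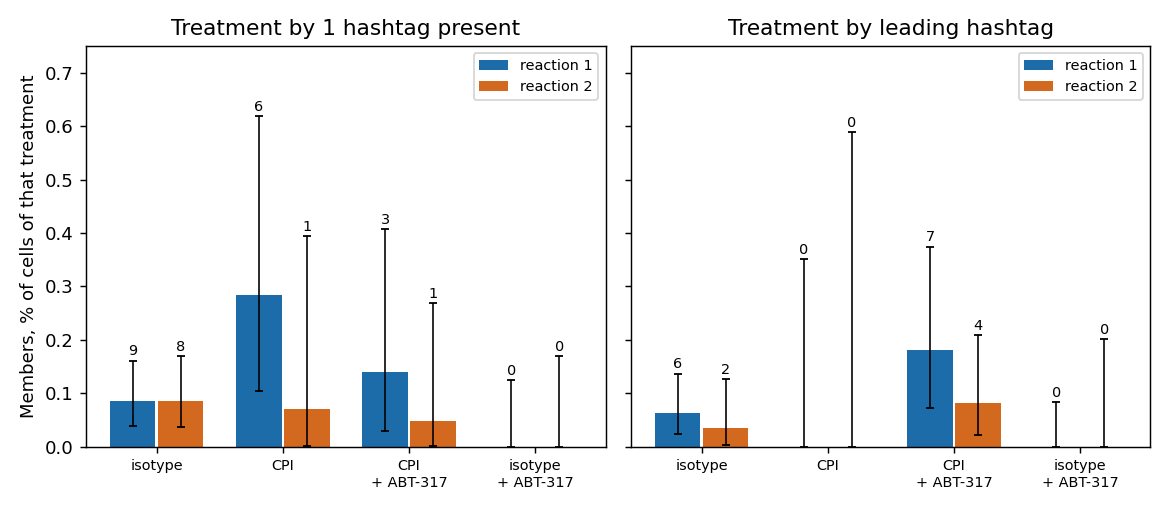
Members as a percentage of the cells of each treatment (y axis) with exact 95% intervals, by reaction, with the count of members above each interval, for treatment read from 1 hashtag present (left) and from the leading hashtag (right). CPI holds 6 and 1 members by the first reading and 0 and 0 by the second.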

How the data were processed

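Live cells of MC38 tumors were profiled by 5′ scRNA-Seq with antibody tags in 2 reactions. The authors deposited filtered matrices of UMI counts per gene and antibody, not normalized, made with Cell Ranger 8.0.1 per the file headers, while the submitters' notes list 3.1.0 and GRCm38. Of the 33696 genes, 5.15% of IDs were not in GENCODE vM21, so no coordinates were taken from the files. Members and gene lists were chosen with earlier results of these data known. Counts were summed per class and reaction, and antibodies were tested with edgeR 4.0.16 (R 4.3.3, TMM, reaction as a block, at least 10 counts in 2 sums), with DESeq2 1.42.0 as an alternative, after a test on simulated data. RNA was compared as CPM without a test, and in each ratio a count under 3 UMIs was taken as 3. The named genes were the 10 highest and 10 lowest by the smaller of the 2 reactions' ratios against C1q-high macrophages (5 and 5 for other classes), at 50 CPM or more (250 for shallow members), and up to 4 per list by level plus those past 2-fold. Arg1-positive C1q-low cells had at least 2 Tyrobp UMIs, no CD3 UMI, C1q under 20 and Arg1 at least 5 per 10000, and neutrophils at least 2 Csf3r UMIs and S100a8 and S100a9 together at 20 or more per 10000. Hashtags were called present from a 2-component mixture of log counts at a posterior of 0.5. No doublet caller was run. The barcode sequences shared between the 2 reactions numbered 1416, none in a member. Intervals and floors cover counting error only. A few planned values are not reported here.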

Additional observations from a re-analysis of the deposited data

Results flagged for a closer look

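Cells that met the same rule were also found in the TDLN reactions, data that the comparisons above do not use. By the paper's account these nodes are from mice with TRAMP-C2 prostate tumors, not MC38 tumors. TDLN reaction 1 held 4 such cells of 62571 past the filters and TDLN reaction 2 held 9 of 56509, while TDLN reaction 3 held 1 of 7050. They were noted because the rule was written for tumors and the lymph node values stand outside every comparison. They were not described further.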

How the results depend on the processing

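The count of members moved with the rule, from 51 to 117 with at least 1 Ly6c2 UMI, 32 with at least 3, 31 under 2500 genes, and 28 with exactly 1 hashtag present, and was 18 to 33 when either reaction was left out. The mean isotype share of 0.0855% became 0.168% of myeloid cells, 0.0405% after thinning to 2000 UMIs, 0.0490% by the leading hashtag, and 0.145% under 2500 genes. The CPI share of 0.178% became 1.30% of myeloid cells and 0% by the leading hashtag, and the CPI + ABT-317 share of 0.0938% became 0.518% of myeloid cells, 0.0245% after thinning, and 0.405% under 2500 genes. Leaving out a reaction gave 0.0850% to 0.0859% for isotype, 0.0708% to 0.285% for CPI, and 0.0483% to 0.139% for CPI + ABT-317. The 1 antibody that passed against C1q-high macrophages became 5 with total counts, 6 with scaling to isotype controls, 2 with no replicate block, 13 with DESeq2, 2 under 2500 genes, 4 without cells led by 1 antibody, and 0 to 4 with a sum left out. Against Arg1-positive C1q-low cells the 0 became 1 with scaling to isotype controls, 12 with DESeq2, 4 without cells led by 1 antibody, and 0 to 3 with a sum left out. Against neutrophils the 2 became 5 with no replicate block, 11 with DESeq2, 1 under 2500 genes, 7 without cells led by 1 antibody, and 5 to 10 with a sum left out, where the lone sum of a class is assumed to vary like the others. Ly-6C against C1q-high macrophages was higher under all 11 alternatives, by 1.46 to 2.92 on the log2 scale, with adjusted p from 0.000237 to 0.574, and passed in 5, among them without the monocyte sum of reaction 1 (1.46, edgeR adjusted p = 0.0159) and without that of reaction 2 (2.86, edgeR adjusted p = 0.00302). It passed in 3 of 11 in each of the other 2 comparisons. The 12 genes at least 2-fold higher than in C1q-high macrophages became 311 under 2500 genes, 60 with 1 hashtag present, 3 at 100 CPM, 48 at 20 CPM, 87 with members weighted equally, and 79 to 203 with a reaction left out, and the 199 lower became 59, 73, 105, 269, 72, and 294 to 398. The difference CPI minus isotype, 0.0922 percentage points, reversed to -0.049 by the leading hashtag and ran from -0.0151 to 0.20 with a reaction left out. CPI + ABT-317 minus CPI, -0.0839, reversed to 0.132 by the leading hashtag and 0.239 under 2500 genes. None of these passed a test. CD115 against C1q-high macrophages reversed to 0.037 (log2) under 2500 genes, and I-A/I-E ran from -0.87 to 0.17 with a sum left out, neither past the threshold under any alternative. The cause of these moves was not tested. Of the antibody alternatives, those under 2500 genes, without led cells, and without other lineages were chosen after seeing the data, as were all RNA settings, the treatment shares without other lineages, and the sums without 1 member. Gene tests between treatments, with their alternatives, were not run, because no treatment reached 20 members in a reaction.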

Other observations

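The CD301b antibody, which binds the lectin coded by Mgl2, was at 214 and 163 per 10000 antibody UMIs in the members and 85.7 and 85.1 in C1q-high macrophages. The log2 difference of 1.24 ± 0.17 (SE from the edgeR fit) missed the threshold (edgeR adjusted p = 0.0594). The shallow members were at 316 and 176 and the deep ones at 112 and 139. The per-cell medians were 123 and 175 in the members and 82.9 and 82.3 in the macrophages. In reaction 1, 3105 of the 6374 CD301b UMIs came from the member with the most Ly-6C, and the level without it was 128. Without cells led by 1 antibody the log2 difference was 0.80 (edgeR adjusted p = 0.00215). It was above 0 under all 11 alternatives, from 0.80 to 1.67, with adjusted p from 3.69e-10 to 0.352, and passed in 7. Mgl2 RNA had 1 and 0 UMIs in the members. In reaction 1 the members with the lowest and highest Ly-6C antibody, 125 and 4481 per 10000, had CD301b at 74.7 and 721. In reaction 2 those at 138 and 824 had CD301b at 83.1 and 307. CD301b is therefore not read as a trait apart from Ly-6C. CD301b was singled out after its values were seen.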
